A study of Mus musculus with 12 samples.

Results

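The genes described here are 35 genes of the unfolded protein response (UPR) and of protein folding, export and disposal in the endoplasmic reticulum (ER). They were chosen by symbol from a deposited table of 32051 genes. All 35 were found and all passed the filter on low values, among 13733 genes that were tested.

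The libraries came from Th9 cells, a CD4+ T helper subset named for its main cytokine, IL-9. Naive CD4+ T cells from spleens of age-matched C57BL/6J mice, 6 to 8 weeks old, were stimulated through CD3 and CD28 and polarized with IL-4 (10 ng/mL), TGF-β (1 ng/mL) and antibodies that block IL-12 and IFN-γ, and RNA was taken on day 4. The 4 groups of 3 libraries received DMSO as vehicle, 10 μM EpA (endomelipeptide A, a cyclic peptide from an endophytic fungus), DMSO with 5 μM fatostatin (labelled DMSO+fato), or both compounds (labelled EpA+fato). The paper used fatostatin as an inhibitor of SREBP1, a membrane-bound transcription factor of lipid synthesis. Its reagent list names the compound more broadly as an SREBP inhibitor. Nothing in the labels says whether replicates of a group came from separate mice or cultures, so the p-values measure only the spread between these libraries, which may be technical.

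The ER folds and glycosylates secreted and membrane proteins. When unfolded proteins build up, the chaperone BiP is drawn away from membrane sensors, which then act through distinct branches: IRE1 (encoded by Ern1) splices Xbp1 mRNA, ATF6 travels to the Golgi and is cut by the site-1 and site-2 proteases, and PERK slows translation and favors ATF4. XBP1 and ATF6 drive chaperones, disulfide isomerases and the ER-associated degradation (ERAD) machinery, and lymphocytes that secrete much protein, plasma cells above all, rely on this program. A known DNA element of these promoters is the ER stress response element (ERSE), which is bound by ATF6 together with the CCAAT-binding factor NF-Y.

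The ERSE was searched for by its letters, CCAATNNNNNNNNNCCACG, on both strands of RefSeq promoter windows that run from 250 bases before to 50 bases after each transcription start on GRCm38.p6. Of the 35 genes, 29 had a window (all but Atf6, Derl1, Manf, Hyou1, Sec61a1 and Sec11c), and 9 of these 29 (31.0%) held the exact element, compared with 37 of 27025 genes of all kinds (0.137%). The genes were chosen by symbol and the element is already known from such promoters, so this contrast is no independent result. The matches are printed because a part of the genes share them. Capitals mark the match, with 12 bases on either side in lower case, read 5′ to 3′ on the strand of the gene. Where the capitals start with CGTGG, the element lies on the opposite strand.
Hspa5 (chr2:34772013-34772055, plus strand): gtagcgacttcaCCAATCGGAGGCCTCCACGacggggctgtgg
Hsp90b1, distal copy (chr10:86705626-86705668, minus strand): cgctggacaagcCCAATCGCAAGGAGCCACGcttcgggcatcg
Hsp90b1, proximal copy (chr10:86705521-86705563, minus strand): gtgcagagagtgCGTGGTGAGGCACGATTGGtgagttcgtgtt
Dnajc3 (chr14:118937815-118937857, plus strand): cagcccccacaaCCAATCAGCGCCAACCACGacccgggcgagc
Pdia6 (chr12:17266479-17266521, plus strand): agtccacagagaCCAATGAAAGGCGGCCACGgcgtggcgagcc
Calr (chr8:84847063-84847105, minus strand): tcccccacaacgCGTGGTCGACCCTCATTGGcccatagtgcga
Canx (chr11:50325788-50325830, minus strand): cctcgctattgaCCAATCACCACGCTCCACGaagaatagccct
Syvn1 (chr19:6046520-6046562, plus strand): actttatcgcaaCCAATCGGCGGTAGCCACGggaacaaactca
Derl3 (chr10:75893230-75893272, plus strand): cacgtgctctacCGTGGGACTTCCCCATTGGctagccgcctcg
Creld2 (chr15:88819508-88819550, plus strand): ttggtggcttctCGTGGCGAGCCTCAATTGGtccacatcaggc

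The matches lay between 212 and 26 bases before the start. The related element ERSE-II (ATTGG and CCACG with 1 base between them) was found in the windows of Dnajb11 and Herpud1 and in 12 genes in all, and the UPR element bound by XBP1 (TGACGTGG) in 0 of the 29 windows and in 0.714% of all genes. A match of letters is no evidence of binding, and a window without a match may hold a variant of the element.

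Values are FPKM, fragment counts scaled by transcript length and library size. Between 36019740 and 43656684 reads per library were recovered on genes from the FPKM, a 1.21-fold spread in depth. Differences were tested with limma on log2(FPKM + 0.1) with the p-values adjusted over all 13733 genes, and genes with an adjusted p below 0.05 are referred to as called. For any gene taken alone, the smallest two-sided p of an exact permutation test of 3 against 3 libraries is 0.1. Markers of T cells were present: Cd3d, Cd3e, Cd3g and Cd4 all exceeded 40 FPKM in each group mean, and all but Cd4 were lower with EpA. Of 6 T cell markers tested, 4 were called lower with EpA and 1 higher: Cd3d went from 135.0 to 114.3 FPKM, Cd3e from 53.3 to 42.3, Cd3g from 122.7 to 101.4 and Cd8a from 1.81 to 0.802, whereas Cd4 went from 78.2 to 86.8 FPKM and Cd8b1 (7.60 and 7.47 FPKM) was not called. A set of 9 markers of B and plasma cells summed to 55.2 to 57.2 FPKM with DMSO and 31.9 to 34.0 FPKM with EpA, most of it Ighm (46.0 and 23.1 FPKM), while the group means of Ms4a1, Jchain, Mzb1 and Pax5 were at most 0.0871 FPKM in these groups. Of the 5 of this set that were tested, 2 were called lower with EpA (Ighm and Cd79a, 0.791 to 0.489 FPKM) and 1 higher, and Cd79b (6.18 and 5.16 FPKM) was not called. Sdc1 had 0.424 FPKM with DMSO, 0.692 with EpA (called higher) and 1.46 with both compounds, and Igkc had 2.42, 3.10 (not called) and 5.52 FPKM. The 3 markers of NK cells summed to 4.69 to 5.05 FPKM with DMSO and 2.52 to 3.12 FPKM with EpA, nearly all of it Klrd1 (4.88 and 2.79 FPKM, called lower), and Ncr1 and Klrb1c had group means of at most 0.0422 FPKM. The 2 erythroid markers summed to at most 0.568 FPKM. The 7 myeloid markers summed to 0.869 to 1.21 FPKM with DMSO, 1.05 to 1.67 with EpA, 0.950 to 1.82 with DMSO+fato and 1.47 to 1.82 with EpA+fato. Of the 4 tested, Lyz2 was called higher with EpA (0.0371 to 0.186 FPKM) and with fatostatin alone (0.200 FPKM), and 0 were called lower in either comparison. On the third principal component, replicate 1 of DMSO+fato (-43.7) and replicate 1 of EpA+fato (-57.7) lay apart from the other 2 libraries of their groups (24.7 to 38.0). Most counts of called genes that rest on them are therefore also given without both. Replicate 2 of DMSO (-37.8) also lay away from the other DMSO libraries (17.0 and 2.92).

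In cells without treatment by either compound, these genes made up close to 1% of all FPKM. Calr, the calcium-binding lectin calreticulin, was the most abundant member with 525.8 ± 16.8 FPKM (SD, n = 3), followed by the disulfide isomerases Pdia3 (286.8 ± 5.57) and P4hb (264.2 ± 0.292), the membrane lectin Canx (252.6 ± 1.85) and Hspa5 (203.3 ± 2.23), which encodes BiP. The sensors were scarce in comparison. Ern1 had 1.94 ± 0.105 FPKM and Atf6 3.32 ± 0.139 FPKM, whereas Xbp1, the mRNA that IRE1 splices, had 79.7 ± 1.22 FPKM. Derl3, an ERAD channel subunit known from secretory cells, was the lowest with 1.08 ± 0.146 FPKM (27 to 111 reads per library over the 12 libraries).

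**Figure D1:**
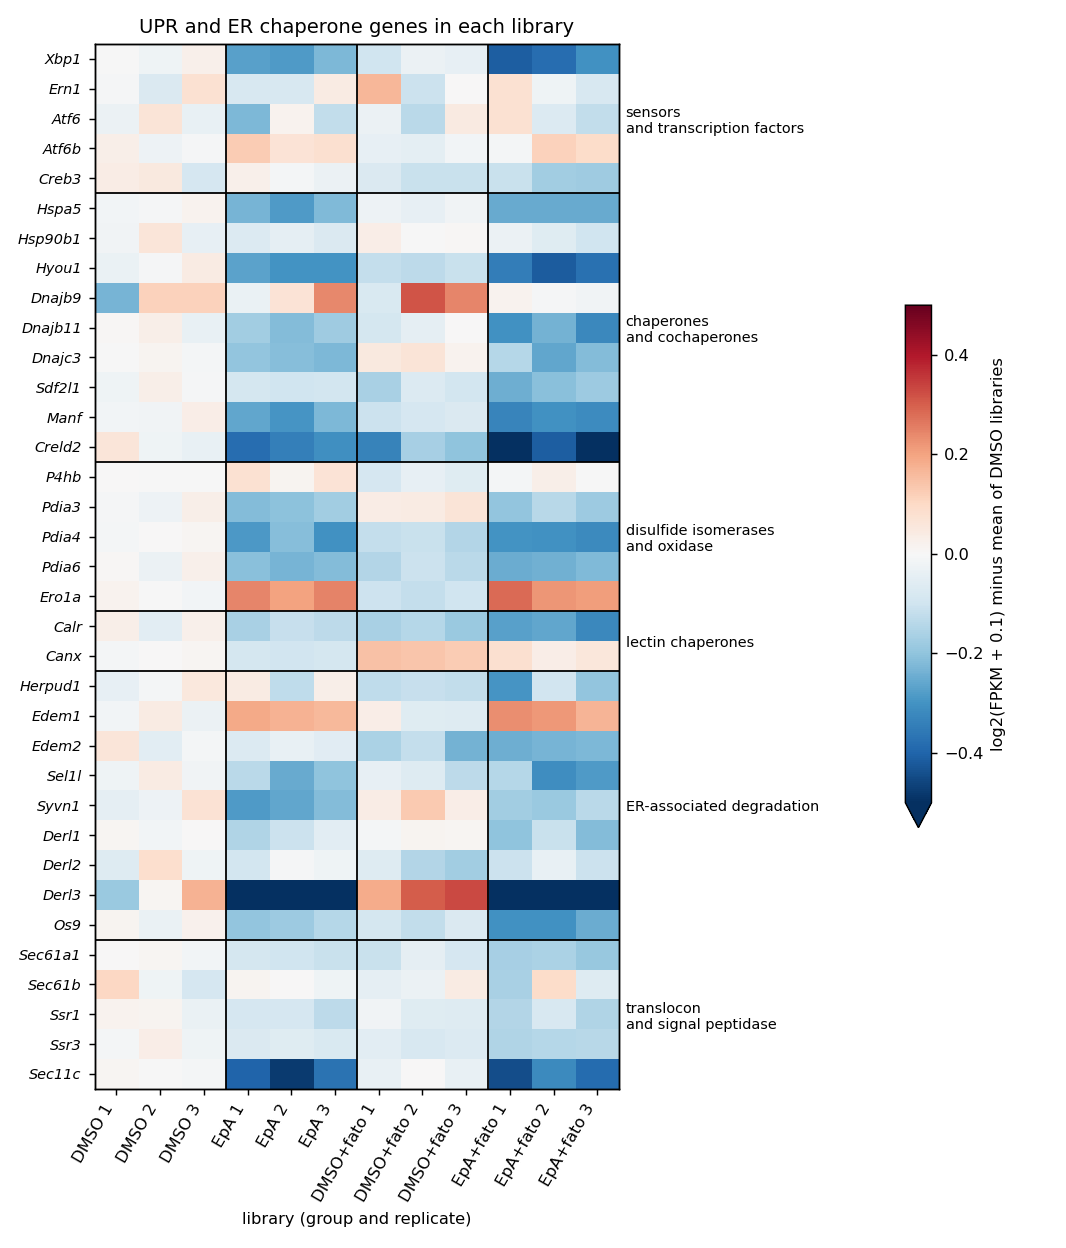
Each of the 35 genes (rows, grouped by role) in each of the 12 libraries (columns), as log2(FPKM + 0.1) minus the mean of the 3 DMSO libraries; colors saturate at -0.5 and 0.5. The EpA and EpA+fato columns are blue for most rows, Ero1a and Edem1 are red in all 6 of them, and Canx is red only in the DMSO+fato and EpA+fato columns.

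The first question was how EpA moved these genes. Of the 35 genes, 22 were lower in EpA-Th9 cells than in DMSO control cells and 2 were higher, with 11 not called. Among all tested genes, 13.1% were called lower and 14.3% higher. The median log2 difference was -0.10 for the 35 genes and 0.00 for all genes tested, so the shift was broad but small. The summed FPKM of the 35 genes was 2793 to 2822 in the 3 DMSO libraries and 2583 to 2610 in the 3 EpA libraries, with no overlap. Values of the 3 EpA libraries all lay below those of the 3 DMSO libraries for 23 of the 35 genes, which was the case for 20.8% of all tested genes. At a further requirement of a 1.5-fold change, 1 of the 35 genes was called (Derl3, lower), compared with 3.38% of all genes in either direction. In bulk RNA, fewer cells that express a gene and less RNA per cell cannot be told apart, and the part that the shifts of T cell, B cell, NK cell and myeloid markers (Cd3d, Cd3e, Cd3g, Cd8a, Ighm, Cd79a and Klrd1 lower, Cd4, Sdc1 and Lyz2 higher) had in these values was not tested. Without DMSO replicate 2, 20 genes were lower and 2 higher.

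Among the sensors and transcription factors, Xbp1 fell. Its FPKM were 79.5, 78.5 and 81.0 in the DMSO libraries and 66.0, 65.4 and 68.1 in the EpA libraries. The groups did not overlap, and the log2 difference was -0.26 (SE 0.0293, limma adjusted p = 6.25e-05). Gene-level FPKM do not separate spliced from unspliced Xbp1 mRNA. The receptor upstream was not called: Ern1 had 1.93, 1.84 and 2.05 FPKM with DMSO and 1.83, 1.83 and 2.0 FPKM with EpA, with overlapping values and a 95% interval of the log2 difference from -0.22 to 0.14. Atf6 was not called either (3.32 and 3.08 FPKM, interval -0.28 to 0.06, limma adjusted p = 0.331). Atf6b, its paralog, had 19.8 and 21.1 FPKM without overlap and missed the threshold (log2 difference 0.09, limma adjusted p = 0.0601). Creb3, a Golgi-cleaved relative of ATF6, had 14.2 and 14.1 FPKM (interval -0.09 to 0.08). Exons of Creb3 share 360 bases (15.2% of its exon length) with the highly expressed Tln1 on the other strand, and the strand setting of the counting is not given in the sources used here, so its level is uncertain.

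Of 9 chaperones and cochaperones, 7 fell with EpA, against 13.1% of all tested genes. Hspa5 had 201.5, 202.6 and 205.8 FPKM with DMSO and 173.1, 166.9 and 174.5 FPKM with EpA. All EpA libraries were lower, a 15.7% decrease of the mean (log2 difference -0.25, SE 0.0180, limma adjusted p = 2.68e-06). Hyou1, the nucleotide exchange factor of BiP, fell from 33.2 ± 0.869 to 27.2 ± 0.327 FPKM (SD, n = 3; log2 difference -0.29, SE 0.0246, limma adjusted p = 7.70e-06). Manf, a secreted ER stress protein that binds BiP, fell from 54.7 ± 1.05 to 45.7 ± 1.13 FPKM (log2 difference -0.26, SE 0.0221, limma adjusted p = 7.63e-06). Creld2, an ER-resident protein with thiol chemistry that is induced by ER stress, had 47.6, 44.9 and 44.4 FPKM with DMSO and 34.97, 36.0 and 36.8 FPKM with EpA. This was the largest log2 difference of the chaperone group (-0.34, SE 0.0450, limma adjusted p = 1.90e-04). The J-domain cochaperones Dnajc3 (25.99 to 22.4 FPKM, log2 difference -0.21) and Dnajb11 (46.1 to 40.45 FPKM, -0.19) fell as well, as did Sdf2l1, a partner of Dnajb11 (72.5 to 68.0 FPKM, -0.09). The Sdf2l1 call was lost without DMSO replicate 2 or EpA replicate 2 (limma adjusted p = 0.0576 to 0.0743). Hsp90b1, the ER paralog of HSP90 with 2 copies of the element in its promoter window, had 153.7 ± 5.81 FPKM with DMSO and 147.1 ± 1.55 FPKM with EpA and was not called (log2 difference -0.06, limma adjusted p = 0.113). Dnajb9, a J-domain protein that restrains IRE1, had 4.92 ± 0.672 and 5.23 ± 0.512 FPKM with overlapping values.

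The disulfide-forming enzymes divided. The isomerases Pdia4 (81.0 ± 0.594 to 67.3 ± 2.33 FPKM, SD, n = 3), Pdia6 (96.3 ± 1.83 to 82.8 ± 0.694 FPKM) and Pdia3 (286.8 ± 5.57 to 249.9 ± 3.77 FPKM) fell, with log2 differences of -0.27, -0.22 and -0.20 and limma adjusted p of 8.08e-06, 7.63e-06 and 3.34e-05. P4hb, the founding isomerase, had 264.2 ± 0.292 FPKM with DMSO and 273.8 ± 6.39 FPKM with EpA and was not called (log2 difference 0.05, limma adjusted p = 0.0714). Ero1a, the oxidase that reoxidizes these isomerases, rose. Its FPKM were 70.7, 69.8 and 69.2 with DMSO and 82.8, 80.3 and 83.1 with EpA. The EpA libraries were all higher (log2 difference 0.23, SE 0.0218, limma adjusted p = 1.64e-05). Ero1a and the 3 isomerases that fell thus differed in direction within the same libraries.

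Both lectin chaperones, which hold glycoproteins during folding, fell. Calr went from 525.8 ± 16.8 to 478.6 ± 7.55 FPKM (SD, n = 3; log2 difference -0.14, SE 0.0253, limma adjusted p = 0.00214) and Canx from 252.6 ± 1.85 to 237.3 ± 0.822 FPKM (log2 difference -0.09, SE 0.0151, limma adjusted p = 0.00105).

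Of 9 ERAD genes, 5 fell and 1 rose, against 13.1% and 14.3% of all tested genes. Derl3 had 0.932, 1.08 and 1.22 FPKM with DMSO and 0.366, 0.340 and 0.427 FPKM with EpA. It was the only one of the 35 genes past 1.5-fold, with a log2 difference of -1.30 (SE 0.143, limma adjusted p = 5.12e-05), which a pseudocount of 1 instead of 0.1 reduced to -0.59. Its paralog Derl1 fell slightly (29.1 to 27.1 FPKM, log2 difference -0.10, limma adjusted p = 0.0277), a call lost without any of 5 libraries (DMSO 1, 2 or 3, EpA 1 or 2; limma adjusted p = 0.0512 to 0.109). Derl2 had 8.09 and 7.87 FPKM and was not called. The ubiquitin ligase Syvn1 (HRD1) fell from 10.4 ± 0.456 to 8.74 ± 0.206 FPKM (log2 difference -0.25, limma adjusted p = 6.20e-04) and its partner Sel1l from 13.5 ± 0.334 to 11.7 ± 0.476 FPKM (log2 difference -0.20, limma adjusted p = 0.00869). The lectin Os9, which delivers glycoproteins to that complex, fell from 65.7 ± 1.29 to 58.3 ± 1.18 FPKM (log2 difference -0.17, limma adjusted p = 2.67e-04). Edem1, a mannosidase-like factor that marks glycoproteins for disposal, rose. Its values were 40.3, 42.0 and 40.0 FPKM with DMSO and 46.5, 46.0 and 45.6 FPKM with EpA, which did not overlap (log2 difference 0.17, SE 0.0299, limma adjusted p = 0.00121). Its relative Edem2 (22.3 and 21.4 FPKM) and Herpud1, a scaffold of the HRD1 complex (22.4 and 22.1 FPKM), were not called.

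At the translocon and signal peptidase, 4 of 5 genes fell, against 13.1% of all tested genes. Sec11c, a catalytic subunit of the signal peptidase, had 15.5, 15.4 and 15.3 FPKM with DMSO and 11.7, 11.04 and 11.9 FPKM with EpA. After Derl3 this was the largest decrease of the 35 genes, 25.2% of the mean (log2 difference -0.42, SE 0.0364, limma adjusted p = 9.07e-06). The channel subunit Sec61a1 (36.5 to 34.1 FPKM) and the translocon-associated Ssr1 (34.96 to 32.6 FPKM) and Ssr3 (111.1 to 105.9 FPKM) fell by log2 differences of -0.10, -0.10 and -0.07. The Ssr1 call was lost without DMSO replicate 1 or EpA replicate 3 (limma adjusted p = 0.0520 to 0.0578). Sec61b, the small channel subunit, had 64.6 ± 4.35 and 64.5 ± 0.782 FPKM and did not separate.

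**Figure D2:**
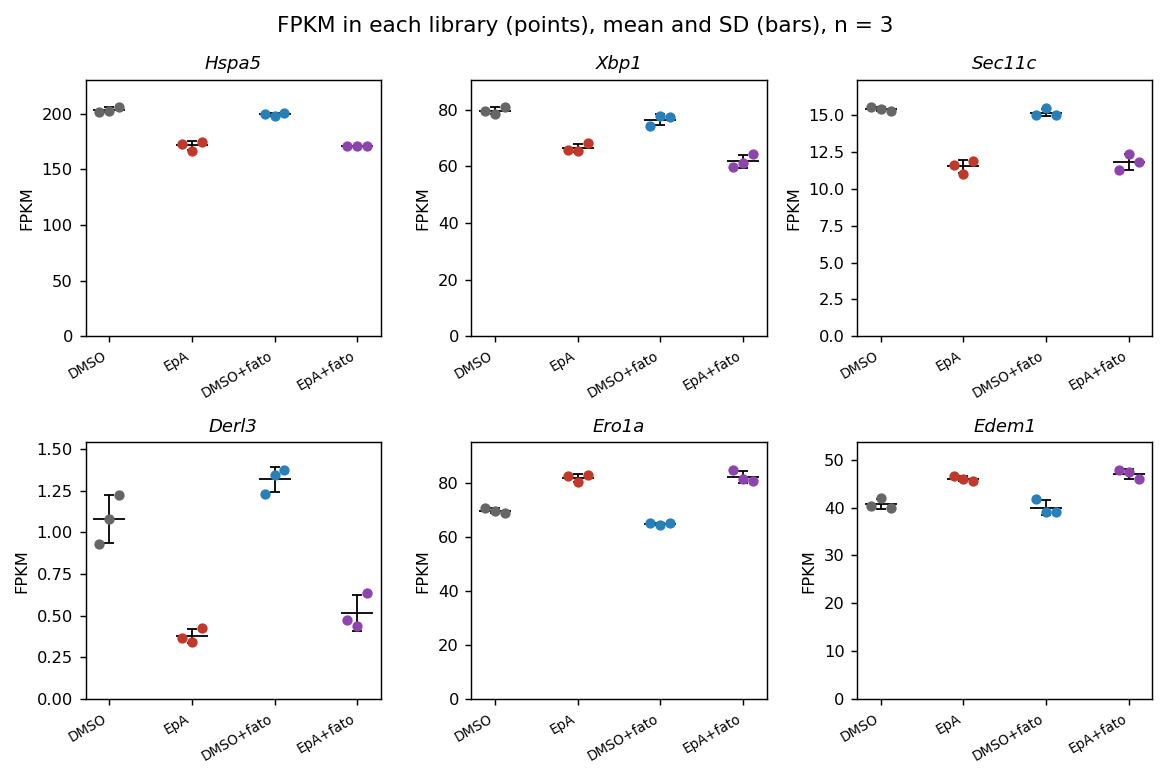
FPKM of Hspa5, Xbp1, Sec11c, Derl3, Ero1a and Edem1 (vertical axes from 0) in each library of the 4 groups (points), with the mean and SD of 3 libraries (bars). With and without fatostatin, the libraries with EpA sat lower for the first 4 genes and higher for Ero1a and Edem1.

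Genes with and without the ERSE were set side by side; of all tested genes, 13.1% were lower and 14.3% higher with EpA. Of the 9 genes with an exact ERSE in the window, 8 were lower with EpA and 0 higher, the exception being Hsp90b1, and their median log2 difference was -0.22. Of the 20 genes with a window and no exact ERSE, 9 were lower and 2 higher, with a median of -0.05. Of the 6 genes without a window, 5 were lower and 0 higher, with a median of -0.18, beside -0.22 for the genes with the element. The difference between these shares was not tested. Beyond the 35 genes, 28 other genes carried the element, of which 10 were expressed enough to be tested. With EpA, 4 of these 10 were lower (Ero1b, Alg12, Hnrnpa3 and Pan2) and 0 higher. Alg12 lay near the threshold (limma adjusted p = 0.0466). Ero1b, the paralog of Ero1a, fell from 1.75 to 1.30 FPKM (log2 difference -0.40, limma adjusted p = 0.00694), opposite in direction to Ero1a, whose window held no exact ERSE. With EpA in the presence of fatostatin, 2 of the 10 were lower (Hnrnpa3 and Pan2) and 0 higher, against 13.3% and 16.2% of all tested genes, and Ero1b (limma adjusted p = 0.0505) and Alg12 (0.475) were not called. These counts were the same without replicate 1 of both fatostatin groups.

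The next question was whether the effect of EpA on these genes was also present with fatostatin. Both EpA comparisons took their spread from the same fit of all 12 libraries. The comparison of EpA+fato with DMSO+fato shares no library with that of EpA and DMSO. In it, 22 of the 35 genes were lower and 4 higher, compared with 13.3% and 16.2% of all tested genes, and the median log2 difference was -0.11 against 0.01 for all genes. The 22 genes lower in this comparison were the same genes as the 22 lower without fatostatin, and both Ero1a and Edem1 were again higher. Fitted on only the groups compared, 19 genes were lower and 2 higher, and the decreases of Sdf2l1, Sel1l and Ssr1 were not called. All EpA+fato libraries lay below all DMSO+fato libraries for 23 of the 35 genes, as they did for 19% of tested genes. Past 1.5-fold, Derl3 was again the only gene called, against 3.75% of all genes. Without replicate 1 of both fatostatin groups, a setting added after the data were seen, 21 genes were lower and 3 higher. Markers moved here too: of 6 T cell markers, Cd3d, Cd3e, Cd3g and Cd8a were called lower and Cd4 higher, of 5 B and plasma cell markers, Ighm (44.1 to 20.4 FPKM) and Cd79b were lower and Igkc and Sdc1 higher, and Klrd1 was lower (3.56 to 1.94 FPKM). Their part in these values was not tested.

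Hspa5 had 199.6, 197.8 and 200.7 FPKM with fatostatin alone and 170.8, 170.8 and 170.7 FPKM with both compounds (log2 difference -0.22, SE 0.0180, limma adjusted p = 4.34e-06). Xbp1 had 74.4, 78.0 and 77.4 FPKM with fatostatin and 59.9, 61.2 and 64.5 FPKM with both (log2 difference -0.31, SE 0.0293, limma adjusted p = 1.49e-05). Neither gene overlapped between the groups. Pdia3 (296.3 to 254.3 FPKM, log2 difference -0.22, limma adjusted p = 1.31e-05), Hyou1 (30.5 to 25.5 FPKM, -0.26, 1.55e-05), Manf (51.4 to 43.9 FPKM, -0.23, 1.80e-05), Sec11c (15.2 to 11.8 FPKM, -0.36, 2.57e-05) and Dnajc3 (26.8 to 22.5 FPKM, -0.25, 5.34e-05) fell in the same comparison. Derl3 had 1.23, 1.35 and 1.37 FPKM with fatostatin and 0.472, 0.434 and 0.637 FPKM with both compounds, again without overlap (log2 difference -1.22, SE 0.143, limma adjusted p = 7.46e-05, and -0.62 with a pseudocount of 1). Ero1a had 65.1, 64.4 and 65.2 FPKM with fatostatin and 85.0, 81.6 and 80.7 FPKM with both, the smallest adjusted p of the 35 genes here (log2 difference 0.34, SE 0.0218, limma adjusted p = 7.30e-07). Edem1 rose from 39.9 ± 1.57 to 47.0 ± 1.05 FPKM (SD, n = 3; log2 difference 0.24, limma adjusted p = 1.30e-04). Ern1 (log2 difference -0.03, interval -0.21 to 0.15), Atf6 (0.00, interval -0.17 to 0.17) and Creb3 (-0.06, interval -0.14 to 0.02) were not called.

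The other 2 genes higher with EpA in the presence of fatostatin were Atf6b (19.4 to 20.8 FPKM, log2 difference 0.10, limma adjusted p = 0.0410) and P4hb (253.0 to 265.4 FPKM, 0.07, 0.0202). Both depended on single libraries. The Atf6b call was lost without any of 7 libraries (DMSO 3, EpA 3, each DMSO+fato library, EpA+fato 2 or 3; limma adjusted p = 0.0540 to 0.147), the P4hb call without DMSO+fato replicate 1 or EpA+fato replicate 2 (0.0697 to 0.0779). Likewise the decrease of Ssr1 was lost without any of 9 libraries (DMSO 1 or 2, EpA 1 or 2, each DMSO+fato library, EpA+fato 1 or 3; 0.0567 to 0.145) and that of Sel1l without DMSO+fato 1 or 2 or EpA+fato 2 or 3 (0.0559 to 0.0737).

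A test of whether the EpA effect differed by the presence of fatostatin called 0 of the 35 genes by limma in either direction, and 0.0437% of all genes. At an unadjusted p below 0.05 there were 3 of 35, Pdia4, Pdia6 and Ero1a, a share near the 7.89% of all tested genes, and the same number by limma-voom on recovered reads. There were 4 without replicate 1 of both fatostatin groups (Pdia6, Ero1a, Dnajb9 and Edem1), against 8.09% of all tested genes. For Pdia6 the log2 difference with EpA was -0.22 without and -0.11 with fatostatin (difference 0.11, 95% interval 0.05 to 0.17, limma adjusted p = 0.321). For Ero1a it was 0.23 and 0.34 (difference 0.11, interval 0.05 to 0.18, limma adjusted p = 0.365), and for Pdia4 -0.27 and -0.18 (difference 0.09, interval 0.01 to 0.16, limma adjusted p = 0.544). For Hspa5 the difference was 0.02 with an interval from -0.03 to 0.08, and for Xbp1 -0.05 with an interval from -0.14 to 0.04. The intervals of the sensors and their relatives were wider, from -0.24 to 0.26 for Ern1, -0.12 to 0.35 for Atf6, -0.09 to 0.11 for Atf6b and -0.17 to 0.06 for Creb3.

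**Figure D3:**
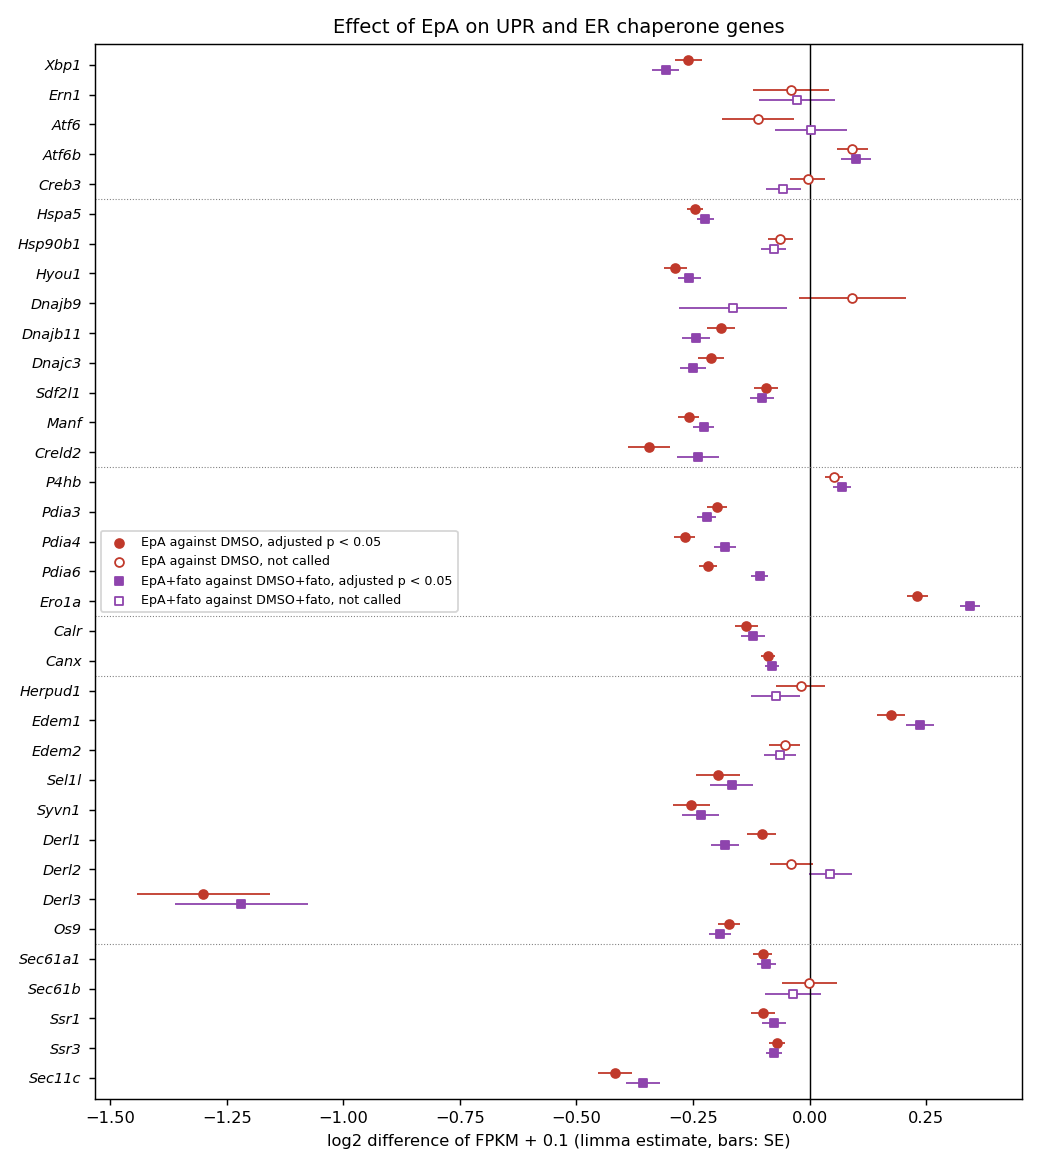
Log2 difference with EpA (limma estimate, bars are SE) for each of the 35 genes, grouped by role with dotted lines, without fatostatin (circles) and with fatostatin (squares); filled symbols had an adjusted p below 0.05. Filled symbols of both kinds lie left of 0 for 22 genes and right of 0 for Ero1a and Edem1, and Derl3 stands at -1.30 and -1.22 (-0.59 and -0.62 with a pseudocount of 1).

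The effect of fatostatin alone was examined next. In DMSO+fato against DMSO, 12 of the 35 genes were lower and 1 higher, compared with 6.31% and 7.69% of all tested genes. The median log2 difference was -0.06, against 0.01 for all genes. No gene of the 35 passed 1.5-fold, which 1.86% of all genes did. This comparison uses the same DMSO libraries as that of EpA. Without replicate 1 of both fatostatin groups, 9 genes were lower and 1 was higher, and the counts were the same without DMSO replicate 2. Among the markers, Cd3g (122.7 to 132.2 FPKM), Cd4 (78.2 to 84.3 FPKM), Sdc1 (0.424 to 0.996 FPKM) and Lyz2 were called higher and Klrd1 lower (4.88 to 3.56 FPKM), and their part was not tested.

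The lectin pair was split by fatostatin. Canx rose from 250.7, 252.7 and 254.4 FPKM to 279.2, 278.2 and 275.8 FPKM (log2 difference 0.14, SE 0.0151, limma adjusted p = 1.04e-04). Calr fell from 536.0, 506.4 and 534.9 FPKM to 470.3, 475.8 and 462.5 FPKM (log2 difference -0.16, SE 0.0253, limma adjusted p = 0.00122). Neither gene overlapped between the groups. Creld2 had 36.1, 40.7 and 39.6 FPKM with fatostatin, all below the DMSO values (log2 difference -0.23, SE 0.0450, limma adjusted p = 0.00495). Edem2 had 23.2, 21.4 and 22.1 FPKM with DMSO and 19.9, 20.46 and 18.9 FPKM with fatostatin (log2 difference -0.17, SE 0.0338, limma adjusted p = 0.00583). The isomerases Pdia6 (96.3 to 88.1 FPKM, log2 difference -0.13, limma adjusted p = 7.29e-04) and Pdia4 (81.0 to 74.3 FPKM, -0.12, 0.00386), the cochaperone Hyou1 (33.2 to 30.5 FPKM, -0.12, 0.00701) and the oxidase Ero1a (69.9 to 64.9 FPKM, -0.11, 0.00694) fell. These 8 calls held without each of the 12 libraries in turn.

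The remaining 5 decreases with fatostatin were small, with log2 differences from -0.11 to -0.07, and each depended on single libraries. The Sdf2l1 call (log2 difference -0.11) was lost without DMSO replicate 2 (limma adjusted p = 0.0604). Manf (-0.09) was lost without DMSO 3 or DMSO+fato 1 or 2 (0.0539 to 0.0854), and Os9 (-0.09) without DMSO 1 or 3 or DMSO+fato 1 or 2 (0.0532 to 0.0847). Sec61a1 (-0.08) was lost without DMSO 1 or 2 or DMSO+fato 1 or 3 (0.0655 to 0.0835), and Ssr3 (-0.07) without DMSO 2 or DMSO+fato 2 or 3 (0.0541 to 0.0717). Hspa5 (203.3 to 199.4 FPKM, interval -0.07 to 0.01), Xbp1 (79.7 to 76.6 FPKM, interval -0.12 to 0.01), Ern1 (interval -0.16 to 0.20), Atf6 (interval -0.21 to 0.13), Atf6b (interval -0.11 to 0.04) and Creb3 (interval -0.18 to -0.02, limma adjusted p = 0.111) were not called. Derl3 was at 1.32 ± 0.0755 FPKM with fatostatin, without overlap with DMSO, and was not called (log2 difference 0.27, limma adjusted p = 0.255).

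When fatostatin was added to EpA, 11 of the 35 genes were lower and 1 higher than with EpA alone, compared with 6.79% and 9.22% of all genes, and 0 of the 35 passed 1.5-fold, against 1.99%. The median log2 difference was -0.04, and 0.01 for all genes. Among the markers, Sdc1 (0.692 to 1.46 FPKM), Igkc (3.10 to 5.52 FPKM), Cd79a (0.489 to 0.869 FPKM) and Cd4 (86.8 to 90.5 FPKM) were called higher and Ighm (23.1 to 20.4 FPKM), Cd8a (0.802 to 0.491 FPKM) and Klrd1 (2.79 to 1.94 FPKM) lower, and their part was not tested. Canx was again the gene that rose (237.7, 236.3 and 237.8 FPKM to 267.0, 258.7 and 262.7 FPKM; log2 difference 0.15, SE 0.0151, limma adjusted p = 5.48e-05). Calr fell from 470.2, 484.8 and 480.6 FPKM to 435.5, 438.7 and 420.7 FPKM (log2 difference -0.15, SE 0.0253, limma adjusted p = 0.00211) and Edem2 from 21.2, 21.7 and 21.4 FPKM to 18.8, 18.9 and 19.0 FPKM (-0.18, SE 0.0338, limma adjusted p = 0.00383), all without overlap. Os9 (58.3 to 53.9 FPKM, log2 difference -0.11, limma adjusted p = 0.00822), Sdf2l1 (68.0 to 62.6 FPKM, -0.12, 0.00915) and Ssr3 (105.9 to 100.5 FPKM, -0.07, 0.0103) also fell, and these 6 calls held without each library in turn. Ero1a, lower with fatostatin alone, had 82.1 and 82.4 FPKM here (log2 difference 0.01, interval -0.04 to 0.05). Hspa5 (log2 difference -0.01, interval -0.05 to 0.03), Ern1 (0.03, interval -0.15 to 0.21), Atf6 (0.07, interval -0.10 to 0.24) and Atf6b (-0.03, interval -0.10 to 0.05) were not called.

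The other 6 decreases depended on which libraries were used. Creb3 (14.1 to 12.7 FPKM, log2 difference -0.15, limma adjusted p = 0.0173) was lost without EpA 1 or EpA+fato 2 or 3 (0.0592 to 0.0660). Xbp1 (66.5 to 61.9 FPKM, -0.11, 0.0313) was lost without EpA 1 or 3 or EpA+fato 1 or 2 (0.0634 to 0.115). Hyou1 (27.2 to 25.5 FPKM, -0.09, 0.0291) was lost without any of the EpA libraries or EpA+fato 2 or 3 (0.0566 to 0.102), and Sec61a1 (34.1 to 32.4 FPKM, -0.07, 0.0351) without any of these 6 libraries of EpA and EpA+fato (0.0533 to 0.110). Dnajb11 (40.45 to 37.8 FPKM, -0.10, 0.0445) was lost in 8 of the 12 leave-outs (each EpA library, EpA+fato 1 or 3, DMSO 1 or 2, DMSO+fato 2; 0.0520 to 0.140) and Herpud1 (22.1 to 19.5 FPKM, -0.18, 0.0440) in 10 (all but EpA 2 and EpA+fato 2; 0.0509 to 0.150). Without replicate 1 of both fatostatin groups, 8 genes were lower and 1 was higher.

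**Figure D4:**
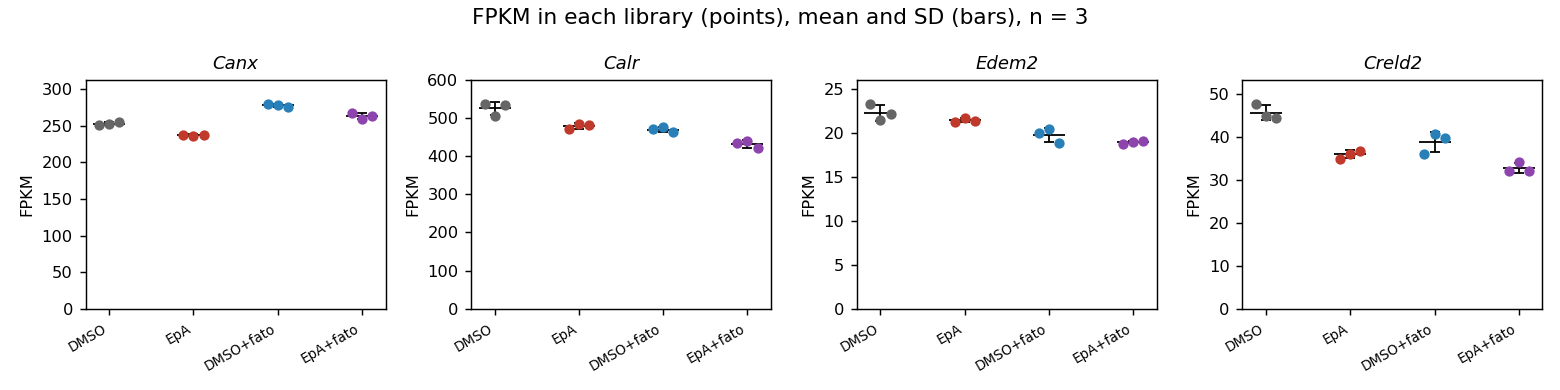
FPKM of Canx, Calr, Edem2 and Creld2 (vertical axes from 0) in each library of the 4 groups (points), with the mean and SD of 3 libraries (bars). Canx is higher, and Calr and Edem2 are lower, in each fatostatin group than in the matching group without it; Creld2 is highest with DMSO.

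Other genes of the same machinery were counted from lists of related genes. With EpA, 7 of 14 genes of the PERK and ATF4 branch were higher and 1 lower, against 14.3% and 13.1% of all tested genes, and the median log2 difference was 0.20. Atf4, the transcription factor of the integrated stress response, rose from 97.3 to 111 FPKM (log2 difference 0.19, limma adjusted p = 7.22e-05). Its target Vldlr (2.02 to 2.90 FPKM, 0.51, 0.00111), Sesn2, which restrains mTORC1 (7.44 to 10.0 FPKM, 0.42, 1.02e-05), Eif4ebp1, an inhibitor of cap-dependent translation (18.6 to 22.8 FPKM, 0.30, 2.40e-04), and Atf3 (12.8 to 15.7 FPKM, 0.30, 2.51e-04) rose as well. Eif2ak3, which encodes PERK itself, fell from 6.11 to 5.54 FPKM (-0.14, 0.0270), and Ddit3 (CHOP), the death-linked factor of the branch, had 7.38 and 6.83 FPKM and was not called.

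With fatostatin alone, 2 genes of this branch were higher and 6 lower, against 7.69% and 6.31% of all tested genes. Sesn2 had 7.21, 7.70 and 7.40 FPKM with DMSO and 15.2, 14.2 and 14.8 FPKM with fatostatin (log2 difference 0.98, SE 0.0376, limma adjusted p = 2.64e-08). Atf4 fell from 97.3 to 76.9 FPKM (-0.34, 1.39e-06), Chac1, a glutathione-degrading ATF4 target, from 2.42 to 1.32 FPKM (-0.83, 5.69e-04) and Trib3, a feedback inhibitor of the branch, from 7.61 to 4.95 FPKM (-0.61, 8.70e-04). Fatostatin added to EpA lowered 6 and raised 3 genes of the branch, against 6.79% and 9.22% of all tested genes. EpA in the presence of fatostatin raised 8 and lowered 1, against 16.2% and 13.3%. Without replicate 1 of both fatostatin groups, fatostatin alone again raised 2 and lowered 6, fatostatin added to EpA raised 2 and lowered 5, and EpA in the presence of fatostatin raised 8 and lowered 2. In no comparison was Ddit3 called higher, and it was called lower with EpA in the presence of fatostatin (7.68 to 6.63 FPKM, -0.21, 0.0440).

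**Figure D5:**
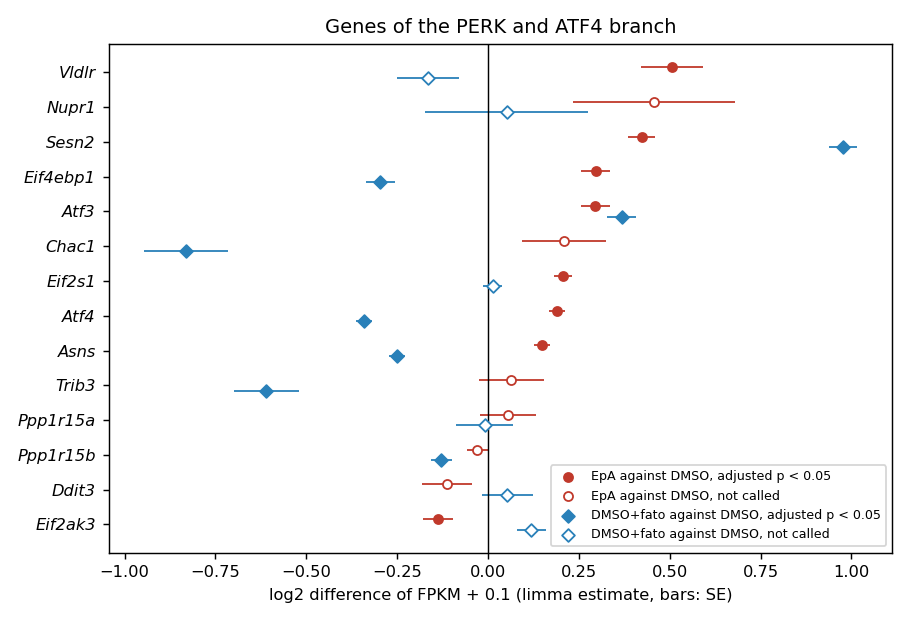
Log2 difference (limma estimate, bars are SE) of 14 genes of the PERK and ATF4 branch for EpA against DMSO (circles) and DMSO+fato against DMSO (diamonds), which share the DMSO libraries; filled symbols had an adjusted p below 0.05. Atf4 stands at 0.19 with EpA and -0.34 with fatostatin, whereas Sesn2 and Atf3 are to the right of 0 in both.

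The counts of the other lists with EpA stand against the same 13.1% lower and 14.3% higher of all tested genes. Among 12 tested genes of sensor signaling and processing, 2 were lower with EpA and 0 higher: Mbtps1, which encodes the site-1 protease that cuts ATF6 and the SREBPs (14.5 to 12.6 FPKM, log2 difference -0.20, limma adjusted p = 1.04e-04), and Tmbim6, an inhibitor of IRE1 (98.3 to 89.7 FPKM, -0.13, 0.00140). Of 31 other ER folding enzymes, 7 were lower and 3 higher with EpA, among them the isomerase Txndc5 (25.7 to 21.3 FPKM, -0.27, 1.78e-05) and, in the other direction, the membrane thioredoxin Tmx3 (13.2 to 15.7 FPKM, 0.24, 4.03e-05). Of 26 other ERAD genes, 5 were lower and 2 higher. The largest decrease was that of Selenos, a selenoprotein of the retrotranslocation complex (35.7 to 29.0 FPKM, -0.30, 2.91e-05).

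Of 30 further genes of the translocon, the signal peptidase, the signal recognition particle and the oligosaccharyltransferase, 9 were lower and 1 higher with EpA. They include the signal peptidase subunits Spcs3 (103 to 86.1 FPKM, log2 difference -0.26, limma adjusted p = 4.21e-06) and Spcs2 (93.9 to 80.8 FPKM, -0.22, 1.10e-04), which form a complex with Sec11c, and the translocating chain-associated Tram1 (76.0 to 64.7 FPKM, -0.23, 5.35e-06). Of 33 genes of ER export and retrieval, 10 were lower and 1 higher, led by the COPII coat gene Sec24d (4.82 to 3.11 FPKM, -0.61, 4.40e-05). The medians of these lists lay between -0.05 and 0.01, closer to that of all genes than the median of the 35 genes.

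Fatostatin alone lowered 6 and raised 4 of the 31 other folding enzymes. It lowered 6 and raised 2 of the 30 translocon and glycosylation genes, and lowered 7 and raised 2 of the 33 genes of export and retrieval. Of all tested genes, 6.31% were lower and 7.69% higher. When replicate 1 of both fatostatin groups was left out, 4 folding enzymes were lower and 3 higher, 4 translocon and glycosylation genes lower and 2 higher, and 5 export and retrieval genes lower and 1 higher. Stt3b, a catalytic subunit of the oligosaccharyltransferase, had 97.0, 96.3 and 95.6 FPKM with DMSO and 75.1, 74.1 and 74.6 FPKM with fatostatin (log2 difference -0.37, SE 0.0155, limma adjusted p = 4.50e-08). Cnpy3, a cochaperone for Toll-like receptors, fell from 12.9 to 9.84 FPKM (-0.39, 5.04e-06). Fatostatin called 0 of the 12 sensor genes and 1 of the 26 other ERAD genes (Ube2j2, lower) by limma. Both counts were the same without replicate 1 of both fatostatin groups.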

How the data were processed

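RNA-seq was measured in 12 libraries of mouse Th9 cells. Per the paper's methods, Trim Galore was used for trimming and HISAT2 for alignment of paired-end reads (GRCm38), and reads per gene came from featureCounts. The authors deposited these values as FPKM; annotation release and strand setting are not given in the sources used here. The authors tested raw counts, which were not used here. After 301 lines that repeated a gene with identical values were dropped, 32051 genes remained, and 0 columns belonged to no sample. With exon lengths from GENCODE M21 (99.9% of genes), 97.9% to 98.6% of values per library came out as whole reads, within 0.1 read. These reads served for depth and for an alternative voom fit.

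A minimum mean of 0.1 FPKM was required, and log2(FPKM + 0.1) was fitted in R 4.3.3 with limma 3.58.1, with 4 group means, an intensity trend and Benjamini-Hochberg adjustment, after a test on simulated data. Fold changes on this scale are understated for low genes. Members, lists, markers and tests were chosen with earlier results of these data known. By the rule for named genes, Hspa5, Xbp1, Ern1, Atf6, Atf6b, Creb3 and the up to 8 members with the smallest adjusted p per comparison received statistics, as did up to 4 called genes per list with the largest change and a mean of at least 1 FPKM, of which a part is printed. Statistics of further members, and Atf4, Eif2ak3, Ddit3 and the ERSE genes outside the lists, were added after their values were seen. Of the listed genes, Trac, Srpr and Tusc3 were not matched by symbol. Promoter windows came from RefSeq (GRCm38.p6). Alternatives changed the pseudocount, filter, scaling, libraries and fit. In addition, 1 listed marker was left out of all counts and sums and is not reported here.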

Additional observations from a re-analysis of the deposited data

How the results depend on the processing

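The 98 named differences were refitted under up to 23 alternatives; the fit of only the groups compared was not run for the difference between both EpA effects. Of the 75 called, 55 kept their call wherever they could be fitted and 0 changed sign; Derl3 could not be fitted at a minimum of 1 FPKM. The genes called lower when fatostatin was added to EpA (11) fell to 6 with only the groups compared and to 5 without an intensity trend, and ranged from 5 to 11 with 1 library left out. The genes called higher with EpA in the presence of fatostatin (4) fell to 2 with median-of-ratios scaling, with only the groups compared and without an intensity trend, and ranged from 2 to 4 with 1 library left out. The cause was not tested. Other scalings moved the median of all genes by at most 0.0172 (log2).

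The correlations of residuals between same-numbered libraries of different groups ran from -0.047 to 0.074 over 18 pairs. Between different-numbered libraries they ran from -0.086 to 0.049 over 36 pairs, and between DMSO+fato 1 and EpA+fato 1 the value was 0.061. With so few libraries, these values cannot decide whether same-numbered libraries shared a mouse, a culture or a batch. With the replicate block, 22 genes were lower and 2 higher with EpA, 12 and 1 with fatostatin, 9 and 1 when fatostatin was added to EpA, and 23 and 3 with EpA in the presence of fatostatin, and 0 were called for the difference between both EpA effects.

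Signs changed among uncalled log2 differences of Ern1, Atf6, Atf6b, Creb3 and Hspa5 (ranges with 1 library left out). With EpA, Creb3 ranged from -0.0469 to 0.0192. With fatostatin alone, Ern1 ranged from -0.0534 to 0.0827 and Atf6 from -0.0838 to 0.0069. With fatostatin added to EpA, Hspa5 ranged from -0.0250 to 0.0071 (0.0029 as TPM), Ern1 from -0.0105 to 0.0706 and Atf6b from -0.0511 to 0.0122. With EpA in the presence of fatostatin, Ern1 ranged from -0.0910 to 0.0451 and Atf6 from -0.0545 to 0.0459 (-0.0110 with median-of-ratios scaling). For the difference between both EpA effects, Ern1 ranged from -0.0518 to 0.0842 and Atf6b from -0.0171 to 0.0462 (-0.0035 with median-of-ratios scaling). Without replicate 1 of both fatostatin groups, chosen after seeing the data, Ern1 was at -0.0534 with fatostatin alone, -0.0105 with fatostatin added to EpA and 0.0037 with EpA in the presence of fatostatin, where Atf6 was at -0.0497, and Atf6b was at 0.0122 with fatostatin added to EpA.

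With 3 libraries per group, differences of low genes such as Ern1 and Atf6 are bounded only by their intervals. Gene-level FPKM hold no information on Xbp1 splicing, ATF6 cleavage or PERK activity, and 1 day was sampled.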
